A study of Arabidopsis thaliana with 8 samples.

Results

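The glucosinolate pathway was followed here through 42 genes chosen by identifier from knowledge of the pathway: MYB regulators, chain elongation, core structure, side chain modification and the GTR transporters. Of these, 40 were among the 18855 genes listed with a value, namely 23 of the 24 aliphatic genes, all 5 genes shared by both branches and 12 of the 13 indole genes. MYB122 (AT1G74080) and AOP2 (AT4G03060) were not analysed here. The values came from RNA-seq of whole Arabidopsis thaliana seedlings, 12 days old and untreated, in 8 libraries of 3 genotypes. The line SPCHΔ49 basl-2 (n = 3) carried 35S:SPCHΔ49 in the basl-2 mutant, the line SPCHΔ49 (n = 3) carried 35S:SPCHΔ49 alone, and WT (n = 2) carried neither. The 35S promoter is active in most plant cells, and SPCHΔ49 is a truncated, stabilized form of SPEECHLESS, the transcription factor that opens the stomatal lineage. BASL is a polarity protein of that lineage, so by its label SPCHΔ49 basl-2 differs from SPCHΔ49 in the basl-2 allele. The labels do not state the number of transgenic lines, any pooling of seedlings or whether replicates were grown apart, and p-values therefore measure the spread between these samples, which may be technical.

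Glucosinolates are sulfur-rich defence compounds of the cabbage order, and most of those in Arabidopsis are made from methionine (aliphatic) or from tryptophan (indole). In the aliphatic branch methionine is first lengthened, then CYP79F enzymes and CYP83A1 turn it into an activated oxime, to which sulfur is added and which is glucosylated and sulfated. The indole branch uses CYP79B2, CYP79B3 and CYP83B1 for the same steps, and CYP81F enzymes then hydroxylate the indole ring. MYB28, MYB29 and MYB76 switch on the aliphatic branch, MYB34, MYB51 and MYB122 the indole branch. When tissue is damaged, myrosinases (TGG enzymes) release reactive products, and specifier proteins decide which product is formed.

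All values below are the deposited signal per gene, which the authors named TPM and which is therefore per transcript length. Library totals lay between 959355 and 1075376 in SPCHΔ49 basl-2, between 852202 and 953620 in SPCHΔ49, and at 1008091 and 1010960 in WT. They do not count reads, and the depth is unknown. SPCH (AT5G53210) had a signal of 397, 338 and 487 in SPCHΔ49 basl-2, 2628, 2357 and 2488 in SPCHΔ49 and 8.20 and 5.65 in WT. It was high in both overexpressors, but every SPCHΔ49 basl-2 library stood below every SPCHΔ49 library, at a mean of 407 against 2491, so that between these lines the allele and the amount of SPCH message cannot be told apart. BASL (AT5G60880) had 2.10, 3.23 and 2.90 in SPCHΔ49 basl-2, 59.7, 58.1 and 35.3 in SPCHΔ49 and 3.34 and 3.52 in WT. The seedlings are labelled whole, but most root markers stood far below WT in both overexpressors. The summed signal of 14 root markers lay between 30.3 and 39.4 in SPCHΔ49 basl-2, between 21.9 and 37.6 in SPCHΔ49, and between 258.7 and 267.7 in WT, and EXPA18 and CASP5 were listed at 0 in all 6 overexpressor libraries. Of these 14 markers 12 fell in each overexpressor. For 8 leaf photosynthesis markers the sums were 25948 to 29988 in SPCHΔ49 basl-2, 22050 to 28480 in SPCHΔ49, and 43357 to 43903 in WT. For 7 vascular markers they were 107.6 to 144.1 in SPCHΔ49 basl-2, 101.8 to 121.5 in SPCHΔ49, and 177.3 to 185.0 in WT. The sums of 5 guard cell markers were 135.4 to 151.7 in SPCHΔ49 basl-2, 110.6 to 127.9 in SPCHΔ49, and 42.6 to 51.8 in WT. The part of these tissue differences in the results below was not tested, and in whole seedlings fewer cells of a type and less RNA per cell cannot be told apart.

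Most glucosinolate genes stood below WT in both overexpressors, and most stood lowest in a single library. The median aliphatic gene stood at 44.9%, 8.76% and 65.9% of its WT mean in SPCHΔ49 basl-2 replicates 1, 2 and 3. It stood at 33.9%, 60.4% and 72.8% in the SPCHΔ49 replicates, and at 108.3% and 91.7% in the WT replicates. The median indole gene stood at 35.2%, 16.4% and 62.9% of its WT mean in SPCHΔ49 basl-2, at 30.7%, 45.9% and 61.1% in SPCHΔ49, and at 105.0% and 95.0% in WT. Over all 18855 genes the same medians lay between 92.9% and 96.3% in SPCHΔ49 basl-2 and between 97.3% and 99.1% in SPCHΔ49.

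**Figure D1:**
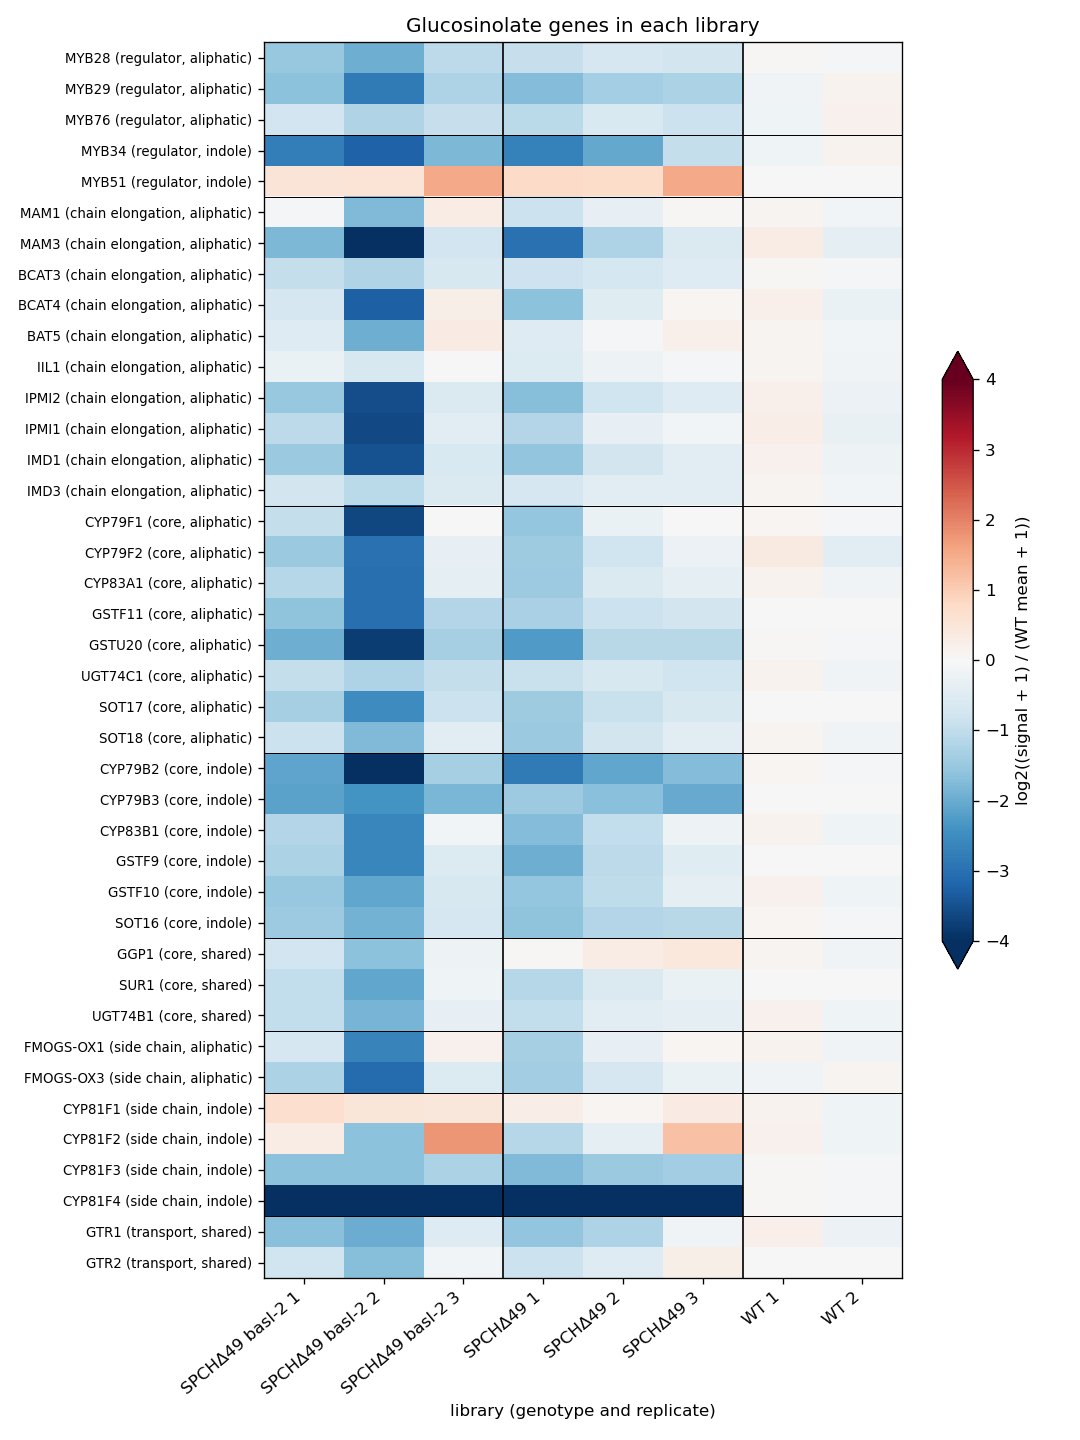
Heat map of the 40 listed glucosinolate genes (rows, grouped by role and branch) in the 8 libraries (columns, by genotype and replicate); colour gives log2 of (signal + 1) over (WT mean + 1), with values beyond 4 in either direction shown in the end colours. SPCHΔ49 basl-2 replicate 2 has the lowest value in 37 of the 40 rows, CYP81F4 is dark blue in all 6 overexpressor libraries, and MYB51 is red in all 6.

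Replicates of the same genotype differed in the same way across the aliphatic genes. SPCHΔ49 basl-2 replicate 2 had the lowest value of all 8 libraries for all 23 aliphatic genes, 9 of 12 indole genes and all 5 shared genes, against 23.1% of all genes listed. Within SPCHΔ49, replicate 1 was the lowest of the 3 for all 23 aliphatic genes and 8 of 12 indole genes, against 39.6% of all genes. Replicate 3 was the highest for 22 of 23 aliphatic and 11 of 12 indole genes in SPCHΔ49 basl-2, and for 18 of 23 and 11 of 12 in SPCHΔ49. The shares of all genes highest in those libraries were 41.9% and 41.2%. The ratio of the highest to the lowest replicate had a median of 6.98 for aliphatic and 3.11 for indole genes in SPCHΔ49 basl-2, of 2.18 and 2.55 in SPCHΔ49, and of 1.20 and 1.12 in WT. Over all genes above 0 in every library of the genotype that median was 1.34, 1.28 and 1.11.

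**Figure D2:**
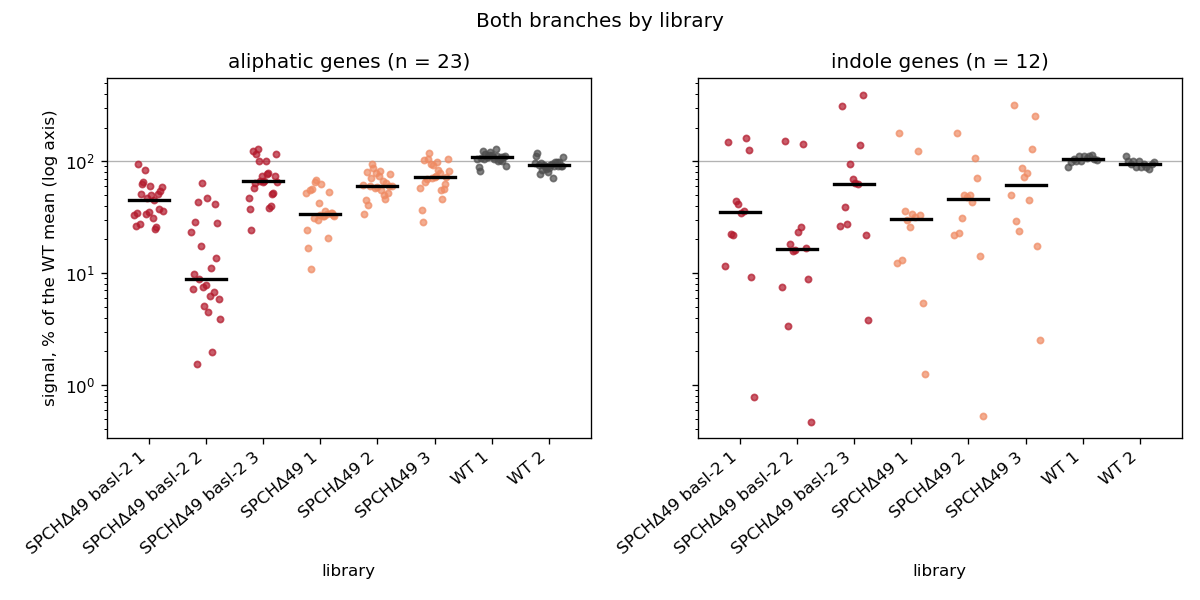
Signal of each of the 23 aliphatic genes (left) and 12 indole genes (right) as a percentage of its WT mean, on a log axis, in the 8 libraries; each point is a gene, the bar is the median and the grey line marks 100%. The aliphatic median is 8.76% in SPCHΔ49 basl-2 replicate 2 and between 33.9% and 72.8% in the other overexpressor libraries.

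These 2 extreme libraries also resembled each other across the transcriptome. The deviations of all genes from their genotype's mean had a correlation of 0.772 between SPCHΔ49 basl-2 replicate 2 and SPCHΔ49 replicate 1, of 0.756 between both replicates 3, and of -0.735 between SPCHΔ49 basl-2 replicate 3 and SPCHΔ49 replicate 1. The correlations are over 18855 genes of the same libraries, which are not independent replicates. The root marker median stood at 0.233%, 0.936% and 1.39% of the WT mean in SPCHΔ49 basl-2 replicates 1 to 3, and at 1.72%, 1.20% and 1.13% in SPCHΔ49. What set these libraries apart was not tested.

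In SPCHΔ49 basl-2 against WT, 15 of the 40 genes fell and 1 rose in limma at an adjusted p under 0.05, adjusted over all 18855 genes. Across all genes 34.3% were called, 21.6% as lower and 12.6% as higher. The share of lower calls among the glucosinolate genes was 37.5%, with MYB76 and CYP81F3 included. These genes met the filter of a signal of 1 or more in 2 or more samples only through WT, and so had to differ. The calls comprised 9 of 23 aliphatic genes, all lower, 6 indole genes that were lower and CYP81F1, which was higher, and none of the 5 shared genes. The median log2 fold change was -1.50 for aliphatic, -1.44 for indole and -1.04 for shared genes, against -0.06 for all genes. Every SPCHΔ49 basl-2 library lay below both WT libraries for 29 of the 40, or 72.5%, against 35.5% of all genes. Every SPCHΔ49 basl-2 library lay above both WT libraries for 2, against 26.5% of all genes. At an unadjusted p under 0.05 there were 24 of the 40, or 60.0%, against 45.8% of all genes. Fold changes here are of log2(signal + 1) and are too small for genes of low signal. Of the genome-wide calls 36.9% were increases as deposited and 49.0% after quantile normalization.

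In SPCHΔ49 against WT, 9 of the 40 genes fell and none rose, where 27.2% of all genes were called, 17.3% as lower and 9.90% as higher. That share of lower calls, 22.5%, again with MYB76 and CYP81F3 included, was near the background. The order of the lines depended on the fit: with only the compared groups in it, 12 of the 40 genes were called in SPCHΔ49 basl-2 and 16 in SPCHΔ49, where 5193 and 5273 of all genes were. The 9 were 4 of 23 aliphatic and 5 of 12 indole genes. The median log2 fold change was -0.78 for aliphatic, -1.23 for indole and -0.59 for shared genes, against -0.01 for all genes. Every SPCHΔ49 library lay below both WT libraries for 26 of the 40, or 65.0%, against 32.7% of all genes, and above them for 1, against 28.2%. At an unadjusted p under 0.05 there were 13 of the 40, or 32.5%, against 40.3% of all genes. Of the genome-wide calls 36.5% were increases as deposited and 50.7% after quantile normalization. Both overexpressors were set against the same WT libraries, so these comparisons are not independent of each other.

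Single libraries weighed on these counts, and on those over all genes. For SPCHΔ49 basl-2 against WT the number of genes called, 16 with all libraries, was 29 without SPCHΔ49 basl-2 replicate 3, 4 with WT replicate 1 left out and 5 with WT replicate 2 left out, and it was 16 without SPCHΔ49 basl-2 replicate 2. All genes called in the same settings numbered 7052, 1624, 1752 and 5416, against 6458 with all libraries. For SPCHΔ49 against WT it was 9 with all libraries, 15 without SPCHΔ49 basl-2 replicate 2, 4 without SPCHΔ49 replicate 1, 5 without SPCHΔ49 replicate 2, 2 with WT replicate 1 left out and 3 with WT replicate 2 left out. There the calls over all genes were 5579, 3710, 3198, 1121 and 1136, against 5120 with all libraries. The library of another genotype counts here because the spread is shared by all 3 genotypes in the fit. Without the replicate 3 libraries of both overexpressors, an alternative added after the data were seen, 31 genes were called in SPCHΔ49 basl-2 and 12 in SPCHΔ49, where 7862 and 6203 of all genes were.

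**Figure D3:**
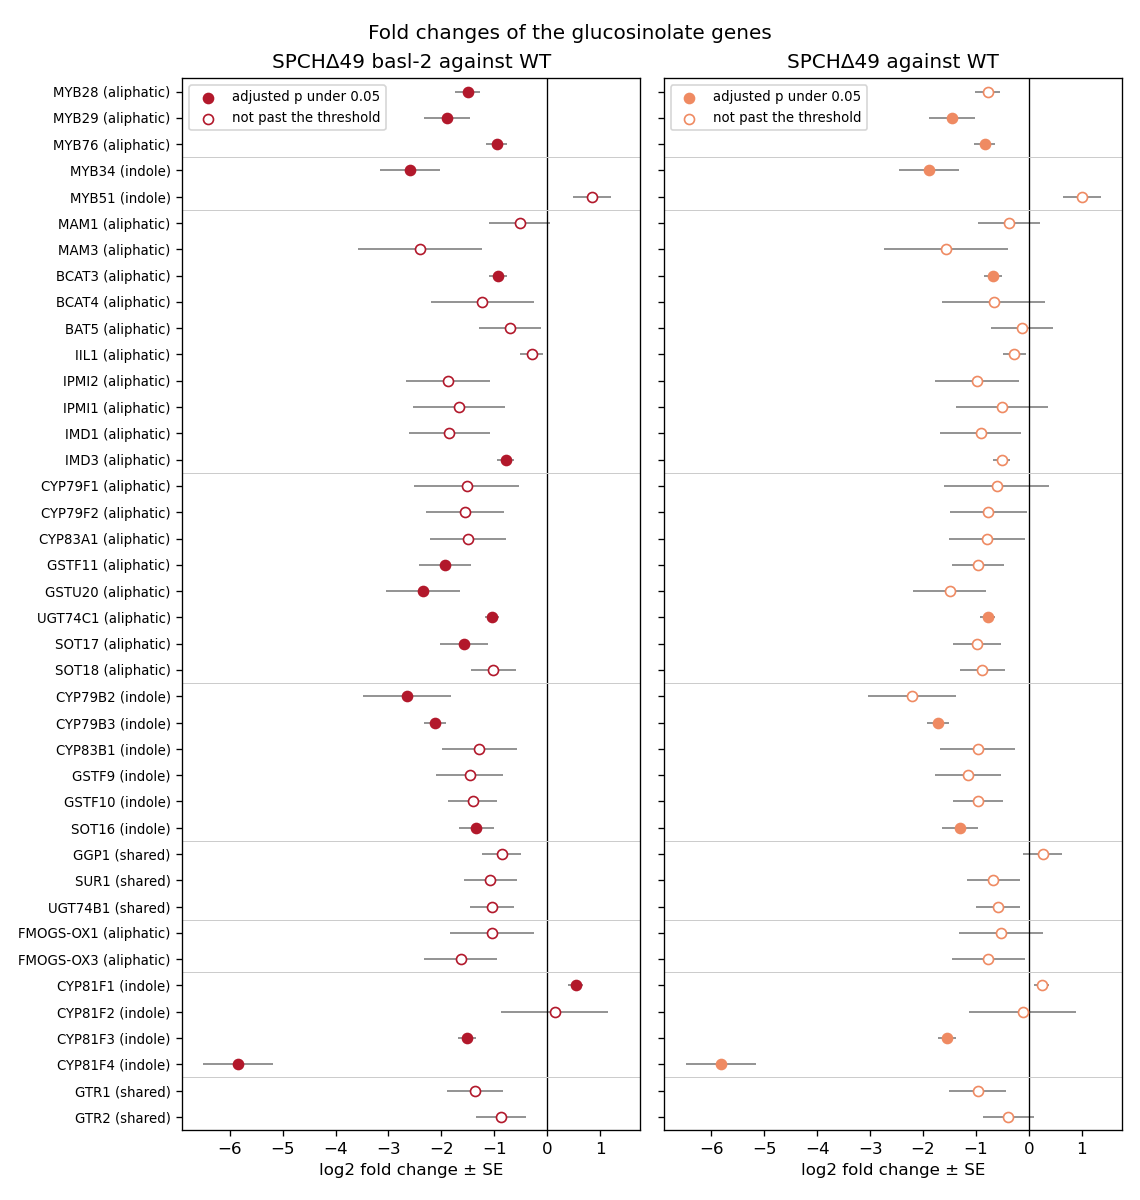
Log2 fold change (± SE, limma) of each of the 40 genes in SPCHΔ49 basl-2 against WT (left) and SPCHΔ49 against WT (right), on the log2(signal + 1) scale; filled circles passed an adjusted p of 0.05 and open circles did not. CYP81F4 lies near -5.83 in both panels, most other genes lie left of 0, and MYB51 and CYP81F1 lie right of 0 in both.

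The regulators of the aliphatic branch were lower in both lines. MYB28 (AT5G61420), its main activator, had a signal of 10.2, 7.17 and 14.4 in SPCHΔ49 basl-2, 15.9, 18.9 and 17.9 in SPCHΔ49 and 32.0 and 29.6 in WT. All 6 overexpressor libraries lay below both WT libraries, and in each of the 3 SPCHΔ49 basl-2 libraries MYB28 was below every SPCHΔ49 library. MYB28 fell in SPCHΔ49 basl-2 (log2 fold change -1.50, SE 0.24, adjusted p 0.00388) and narrowly missed the threshold in SPCHΔ49 (-0.78, SE 0.24, adjusted p 0.0506), which it passed under 8 of 18 alternatives. MYB29 (AT5G07690), which acts beside MYB28, had 3.25, 0.879 and 4.65 in SPCHΔ49 basl-2, 2.97, 4.16 and 4.49 in SPCHΔ49 and 11.0 and 13.7 in WT. It fell in both, by 1.90 and 1.46 on the log2 scale (adjusted p 0.0146 and 0.0431). MYB76 (AT5G07700), the neighbour of MYB29 on the chromosome in the RefSeq annotation and a weaker activator, had 0.589, 0.167 and 0.413 in SPCHΔ49 basl-2, 0.286, 0.757 and 0.485 in SPCHΔ49 and 1.37 and 2.01 in WT. Only in WT did MYB76 reach a signal of 1, so it met the filter through the group in which it is high. It passed with log2 fold changes of -0.96 and -0.84 (adjusted p 0.0102 and 0.0196), and after quantile normalization in neither (0.222 and 0.278).

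The indole regulators stood on opposite sides of WT. MYB34 (AT5G60890), which activates indole glucosinolate and tryptophan synthesis genes, had 3.28, 2.13 and 7.42 in SPCHΔ49 basl-2, 3.51, 6.14 and 14.2 in SPCHΔ49 and 25.1 and 31.5 in WT. No overexpressor library reached the WT range, although SPCHΔ49 replicate 3 came nearest. MYB34 fell by 2.59 in SPCHΔ49 basl-2 (SE 0.56, adjusted p 0.0124) and by 1.89 in SPCHΔ49 (SE 0.56, adjusted p 0.0446) on the log2 scale. MYB51 (AT1G18570), its relative that is known for stress-induced indole glucosinolates in leaves, had 10.02, 10.3 and 21.1 in SPCHΔ49 basl-2, 12.2, 12.1 and 21.4 in SPCHΔ49 and 6.71 and 6.87 in WT. All 6 overexpressor libraries lay above WT, with the replicate 3 library the highest of each line. Its log2 fold changes of 0.85 and 1.01 did not pass (adjusted p 0.106 and 0.0757). They passed under 2 and 5 of 18 alternatives, among them the fit without the replicate 3 libraries of both overexpressors (0.0136 and 0.00532).

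Of the 10 chain elongation genes, 2 fell in SPCHΔ49 basl-2 and 1 in SPCHΔ49. These shares were not above the 21.6% and 17.3% of all genes that were lower. BCAT3 (AT3G49680), a plastid aminotransferase that acts at the end of elongation and also in leucine synthesis, had 36.6, 31.0 and 45.5 in SPCHΔ49 basl-2, 40.3, 43.5 and 50.4 in SPCHΔ49 and 75.2 and 68.8 in WT. The groups did not overlap with WT, and BCAT3 fell by 0.93 and 0.68 on the log2 scale (adjusted p 0.00639 and 0.0243). IMD3 (AT1G31180), an isopropylmalate dehydrogenase, had 31.0, 24.4 and 34.6 in SPCHΔ49 basl-2, 32.3, 38.2 and 38.1 in SPCHΔ49 and 56.4 and 47.7 in WT, and passed in SPCHΔ49 basl-2 (-0.78, adjusted p 0.0107) but not in SPCHΔ49 (-0.51, adjusted p 0.0559). These genes were among the steadiest of the group between replicates.

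The other elongation genes were spread more widely than they differed. MAM3 (AT5G23020), a methylthioalkylmalate synthase next to MAM1, had 12.0, 0.676 and 25.3 in SPCHΔ49 basl-2, 4.74, 18.0 and 29.0 in SPCHΔ49 and 54.4 and 33.8 in WT. All overexpressor libraries lay below WT, yet the ratio of highest to lowest SPCHΔ49 basl-2 library was 37.4, the largest of the 40 genes, and the log2 fold change of -2.40 had an SE of 1.17 (adjusted p 0.150). MAM1 (AT5G23010), which makes the shorter chains, had 164, 50.1 and 214 in SPCHΔ49 basl-2, 95.5, 139 and 180.2 in SPCHΔ49 and 188 and 161 in WT, so that SPCHΔ49 basl-2 replicate 3 was above and replicate 2 far below both WT libraries. The aminotransferase gene BCAT4 (AT3G19710), which starts elongation, had 35.3, 4.99 and 66.6 in SPCHΔ49 basl-2, 17.7, 40.2 and 59.6 in SPCHΔ49 and 66.3 and 47.5 in WT. SPCHΔ49 basl-2 replicate 2 was also the lowest library for the bile acid transporter family gene BAT5 (AT4G12030), the isopropylmalate isomerase genes IPMI1 (AT3G58990) and IPMI2 (AT2G43100) and the dehydrogenase gene IMD1 (AT5G14200). Their log2 fold changes lay between -1.87 and -0.71 in SPCHΔ49 basl-2 and between -0.98 and -0.12 in SPCHΔ49, none past the threshold. IIL1 (AT4G13430), the large isomerase subunit that also serves leucine synthesis, varied little, with 120.3, 92.9 and 146 in SPCHΔ49 basl-2, 98.7, 125 and 138 in SPCHΔ49 and 158 and 132 in WT.

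In the core of the aliphatic branch 4 of 8 genes fell in SPCHΔ49 basl-2, where 21.6% of all genes did, and 1 in SPCHΔ49, where 17.3% did. UGT74C1 (AT2G31790), a glucosyltransferase, had 29.8, 24.7 and 30.04 in SPCHΔ49 basl-2, 31.1, 37.4 and 33.4 in SPCHΔ49 and 65.0 and 53.1 in WT. It varied least of the aliphatic core genes within each overexpressor, though not within WT, and it fell by 1.04 (SE 0.14, adjusted p 0.00181) and 0.78 (SE 0.14, adjusted p 0.00682) on the log2 scale. GSTU20 (AT1G78370), a glutathione transferase of the aliphatic branch, had 53.5, 14.1 and 83.2 in SPCHΔ49 basl-2, 42.7, 95.8 and 95.5 in SPCHΔ49 and 214 and 204 in WT. It fell in SPCHΔ49 basl-2 (-2.35, adjusted p 0.0375), and in SPCHΔ49 it had -1.50 with an adjusted p of 0.154. GSTF11 (AT3G03190), of the same step, had 2.12, 0.168 and 3.27 in SPCHΔ49 basl-2, 2.89, 4.27 and 4.72 in SPCHΔ49 and 8.60 and 8.45 in WT (log2 fold change -1.93 and adjusted p 0.0230 in SPCHΔ49 basl-2, -0.96 and 0.195 in SPCHΔ49). SOT17 (AT1G18590), a sulfotransferase of the last core step, had 7.80, 2.87 and 11.1 in SPCHΔ49 basl-2, 7.28, 11.0 and 13.1 in SPCHΔ49 and 21.3 and 20.8 in WT, and passed in SPCHΔ49 basl-2 (-1.57, adjusted p 0.0349) but not in SPCHΔ49 (-0.98, adjusted p 0.152). For all 4 genes, which were picked as past the threshold in these same libraries, every overexpressor library lay below WT. So did 35.5% of all genes in SPCHΔ49 basl-2 and 32.7% in SPCHΔ49.

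The entry enzymes of the aliphatic branch did not pass in either line. CYP79F1 (AT1G16410) had 13.3, 1.20 and 26.9 in SPCHΔ49 basl-2, 8.51, 21.9 and 26.2 in SPCHΔ49 and 28.0 and 25.1 in WT. Its tandem neighbour CYP79F2 (AT1G16400), a close relative with which it may share reads, had 4.26, 0.849 and 10.6 in SPCHΔ49 basl-2, 4.45, 7.51 and 11.5 in SPCHΔ49 and 17.7 and 9.74 in WT. Both overlapped with WT, and SPCHΔ49 basl-2 replicate 2 was the lowest library for each. CYP83A1 (AT4G13770), the next enzyme, had 33.4, 8.27 and 57.7 in SPCHΔ49 basl-2, 26.4, 49.3 and 57.8 in SPCHΔ49 and 82.0 and 66.7 in WT, and SOT18 (AT1G74090), the other aliphatic sulfotransferase, had log2 fold changes of -1.01 (adjusted p 0.104) and -0.88 (adjusted p 0.168). These 2 genes lay below WT in every library of either line, as did 35.5% of all genes in SPCHΔ49 basl-2 and 32.7% in SPCHΔ49.

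In the core of the indole branch 3 of 6 genes fell in SPCHΔ49 basl-2, against 21.6% of all genes, and 2 in SPCHΔ49, against 17.3%. CYP79B3 (AT2G22330), which turns tryptophan into its oxime, had 22.0, 18.2 and 27.3 in SPCHΔ49 basl-2, 35.7, 30.9 and 24.0 in SPCHΔ49 and 100.1 and 100.1 in WT. Every overexpressor library stood far below them, including SPCHΔ49 replicate 3, the highest library of that line for most other genes of the branch. CYP79B3 stood at 22.5% of WT in SPCHΔ49 basl-2 and at 30.2% in SPCHΔ49, with log2 fold changes of -2.12 (SE 0.20, adjusted p 0.000405) and -1.71 (SE 0.20, adjusted p 0.00111). CYP79B2 (AT4G39950), which catalyses the same reaction, had 19.5, 2.95 and 34.4 in SPCHΔ49 basl-2, 11.5, 20.1 and 25.9 in SPCHΔ49 and 92.1 and 83.9 in WT. It varied far more than CYP79B3 between replicates, with a highest to lowest ratio of 11.7 against 1.50 in SPCHΔ49 basl-2. It passed in SPCHΔ49 basl-2 (-2.65, SE 0.84, adjusted p 0.0463) but not in SPCHΔ49 (-2.21, SE 0.84, adjusted p 0.0921).

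SOT16 (AT1G74100), the sulfotransferase of the indole branch, had 25.4, 18.4 and 44.3 in SPCHΔ49 basl-2, 22.5, 30.9 and 32.3 in SPCHΔ49 and 75.3 and 67.0 in WT. It fell in both lines, by 1.33 and 1.30 on the log2 scale (adjusted p 0.0209 and 0.0271). CYP83B1 (AT4G31500), the second indole cytochrome P450, had 59.0, 21.1 and 125 in SPCHΔ49 basl-2, 39.8, 66.9 and 116 in SPCHΔ49 and 149 and 119 in WT, so that SPCHΔ49 basl-2 replicate 3 lay within the WT range. The glutathione transferase gene GSTF9 (AT2G30860) had the highest level of the 40 genes per length, with 241, 93.1 and 398 in SPCHΔ49 basl-2, 148, 278 and 416 in SPCHΔ49 and 574 and 578 in WT. Neither GSTF9 nor its tandem neighbour GSTF10 (AT2G30870), at 40.5% of WT in SPCHΔ49 basl-2 and 53.8% in SPCHΔ49, passed, and as close relatives they may share reads.

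None of the 3 core genes used by both branches passed against WT. GGP1 (AT4G30530), a gamma-glutamyl peptidase that trims the glutathione conjugate, had 66.8, 35.7 and 98.3 in SPCHΔ49 basl-2, 116, 141 and 152 in SPCHΔ49 and 123 and 104 in WT. Its log2 fold change was -0.86 in SPCHΔ49 basl-2 (adjusted p 0.113) and 0.26 in SPCHΔ49 (adjusted p 0.637). The C-S lyase gene SUR1 (AT2G20610) and the glucosyltransferase gene UGT74B1 (AT1G24100) had log2 fold changes of -1.07 and -1.04 in SPCHΔ49 basl-2 and of -0.67 and -0.59 in SPCHΔ49.

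The largest change among the 40 genes was in side chain modification. CYP81F4 (AT4G37410), which hydroxylates the indole ring at the position that leads to 1-methoxy-indole glucosinolate, had 1.51, 0.918 and 7.38 in SPCHΔ49 basl-2, 2.47, 1.04 and 4.88 in SPCHΔ49 and 200.3 and 191 in WT. It stood at 1.67% of WT in SPCHΔ49 basl-2 and 1.43% in SPCHΔ49, with log2 fold changes of -5.84 (SE 0.66, adjusted p 0.000880) and -5.83 (SE 0.66, adjusted p 0.000887). The root marker median lay between 0.233% and 1.72% of WT in the same libraries, but most of those markers met the filter only through WT. Of the others, PHO1 stood at 26.2% of WT in SPCHΔ49 basl-2 and 20.3% in SPCHΔ49, and PHT1;1 at 21.2% and 27.9%. SHR stood at 56.2% and 77.8%, and CASP2 at 94.4% and 17.3%. The part of root tissue in the CYP81F4 result was not tested. CYP81F3 (AT4G37400), close to CYP81F4 on the chromosome, can act at another position of the ring. It had 0.274, 0.259 and 0.643 in SPCHΔ49 basl-2, 0.158, 0.419 and 0.509 in SPCHΔ49 and 3.09 and 2.79 in WT. It fell too (-1.51 and -1.54, adjusted p 0.000887 and 0.000813), and like MYB76 it reached a signal of 1 only in WT.

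No fall passed the test for the other CYP81F genes. CYP81F1 (AT4G37430), in the same chromosomal cluster, had 23.7, 20.7 and 20.2 in SPCHΔ49 basl-2, 17.8, 15.4 and 18.7 in SPCHΔ49 and 16.3 and 12.8 in WT. It rose in SPCHΔ49 basl-2, by a log2 fold change of 0.54 (SE 0.14, adjusted p 0.0241), and did not pass in SPCHΔ49 (0.24, adjusted p 0.248). CYP81F2 (AT5G57220), known for pathogen-triggered 4-methoxy-indole glucosinolate, had 5.68, 0.741 and 17.6 in SPCHΔ49 basl-2, 1.47, 3.13 and 11.3 in SPCHΔ49 and 5.10 and 3.84 in WT. Its replicate 3 library was the highest of each overexpressor and its values spanned the WT level in both. On the aliphatic side the S-oxygenase genes FMOGS-OX1 (AT1G65860) and FMOGS-OX3 (AT1G62560) had log2 fold changes of -1.05 and -1.63 in SPCHΔ49 basl-2 and of -0.52 and -0.76 in SPCHΔ49. SPCHΔ49 basl-2 replicate 2 was the lowest library for both, and neither gene passed in either comparison.

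**Figure D4:**
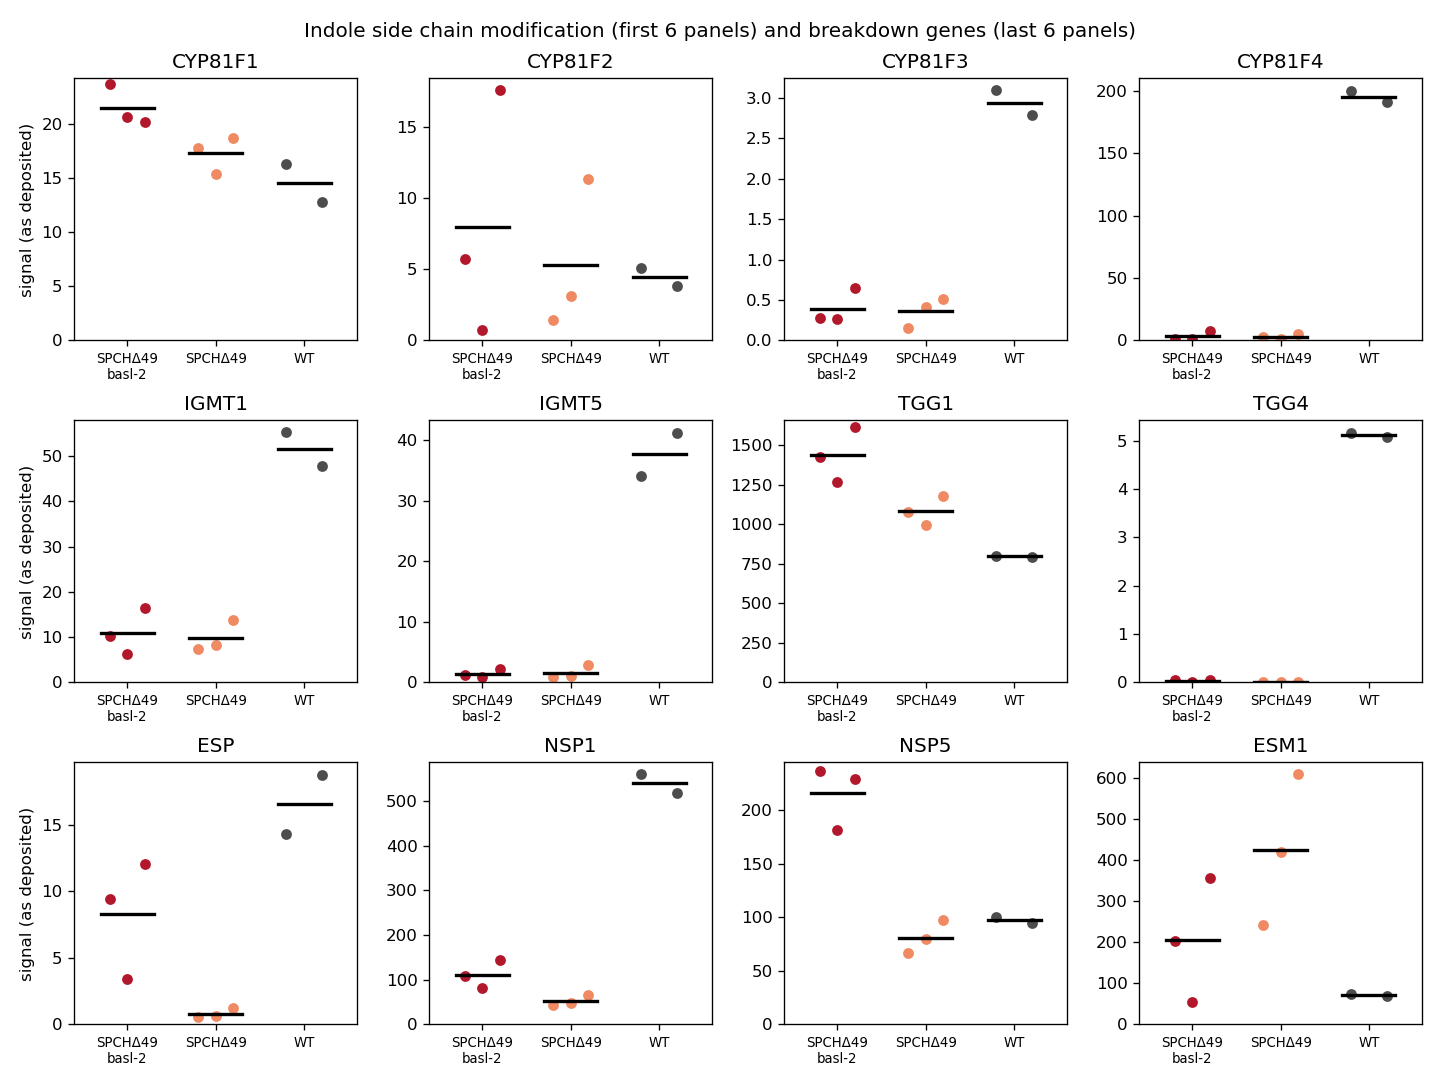
Deposited signal (linear axes from 0) of 4 CYP81F and 2 IGMT genes of indole side chain modification and of 6 genes of glucosinolate breakdown, in SPCHΔ49 basl-2, SPCHΔ49 and WT; points are libraries and bars are group means. CYP81F3, CYP81F4, IGMT1, IGMT5 and TGG4 are low in all 6 overexpressor libraries, while NSP5 is highest in the 3 SPCHΔ49 basl-2 libraries.

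The transporters that load glucosinolates into the phloem did not pass. GTR1 (AT3G47960) had 6.41, 4.96 and 15.5 in SPCHΔ49 basl-2, 6.89, 8.93 and 20.2 in SPCHΔ49 and 26.1 and 18.7 in WT. GTR2 (AT5G62680) had 19.9, 10.2 and 33.1 in SPCHΔ49 basl-2, 19.0, 24.6 and 41.4 in SPCHΔ49 and 35.5 and 35.4 in WT. For both genes every SPCHΔ49 basl-2 library lay below WT while SPCHΔ49 replicate 3 did not, and the log2 fold changes were -1.36 and -0.87 in SPCHΔ49 basl-2 (adjusted p 0.0872 and 0.195) and -0.97 and -0.39 in SPCHΔ49 (adjusted p 0.220 and 0.580).

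The calls differed in how much they rested on 1 library. In SPCHΔ49 basl-2 against WT the calls of MYB28, UGT74C1, CYP79B3 and CYP81F4 held without any single library. Those of MYB76 and CYP81F3 held without any single library wherever they could be tested. Without a WT library, MYB76 and CYP81F3 were not tested, because the filter then removed them. Calls were lost without WT replicate 1 for BCAT3 (adjusted p 0.0686), and without either WT library for MYB29 (0.0793 to 0.106), MYB34 (0.0749 to 0.0935), IMD3 (0.0510 to 0.102) and GSTF11 (0.119 to 0.126). SOT16 (0.0637 to 0.132) and CYP81F1 (0.0509 to 0.173) lost theirs without either WT library or SPCHΔ49 basl-2 replicate 1. GSTU20 (0.0597 to 0.170) and SOT17 (0.0600 to 0.161) did so also without SPCHΔ49 replicate 2, and CYP79B2 (0.0572 to 0.195) without any single library but SPCHΔ49 basl-2 replicates 2 and 3. In SPCHΔ49 against WT the calls of CYP79B3 and CYP81F4 held without any single library, and that of CYP81F3 wherever tested. UGT74C1 lost its call without WT replicate 1 (0.0832) and MYB76 without SPCHΔ49 replicate 1 (0.0541). BCAT3 (0.0692 to 0.167) and SOT16 (0.0636 to 0.167) lost theirs without either WT library or SPCHΔ49 replicates 1 or 2. MYB34 (0.0726 to 0.218) did so also without SPCHΔ49 basl-2 replicate 1, and MYB29 (0.0635 to 0.221) also without SPCHΔ49 basl-2 replicate 1 or SPCHΔ49 replicate 3.

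Between the overexpressors none of the 40 genes passed in limma, where 5.41% of all genes did, 3.36% as lower and 2.05% as higher in SPCHΔ49 basl-2. The genes above that passed in SPCHΔ49 basl-2 and not in SPCHΔ49 are thus not shown to differ between the lines. At an unadjusted p under 0.05 there were 3 of the 40, or 7.5%, against 21.9% of all genes. GGP1 had a log2 fold change of -1.12 in SPCHΔ49 basl-2 against SPCHΔ49, with a 95% interval from -1.90 to -0.34 (adjusted p 0.104), and every SPCHΔ49 basl-2 library lay below every SPCHΔ49 library, as for 3 of the 40 genes and 15.0% of all genes. MYB28 had -0.72, from -1.23 to -0.22 (adjusted p 0.107), and CYP81F1 0.30, from 0.00440 to 0.60 (adjusted p 0.222). For CYP81F4 the difference was -0.01, with an interval from -1.41 to 1.38, and for CYP79B3 -0.41, from -0.84 to 0.02. Without SPCHΔ49 basl-2 replicate 3, MYB28 (adjusted p 0.0259) and GGP1 (0.0325) passed. A lower level in SPCHΔ49 basl-2 than in SPCHΔ49 was the direction for 37 of the 40 genes, or 92.5%, against 54.0% of all genes. These genes moved together by library, so their directions are not independent. The median log2 fold change was -0.59 for the aliphatic and -0.24 for the indole genes, against -0.03 for all genes. Without SPCHΔ49 basl-2 replicate 2 those medians were -0.06 and 0.25, and 17 of the 40 genes changed sign. The indole median was also positive, at 0.06, without SPCHΔ49 replicate 3.

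Pathway genes beyond the 40 were taken from lists made with earlier results of these data known. Of 10 further biosynthesis and transport genes, 5 fell and 1 rose in SPCHΔ49 basl-2, and 5 fell and 1 rose in SPCHΔ49, where 34.3% and 27.2% of all genes were called. The methyltransferase gene IGMT5 (AT1G76790), which completes the 1-methoxy modification after CYP81F4, had 1.21, 0.889 and 2.22 in SPCHΔ49 basl-2, 0.848, 1.06 and 2.92 in SPCHΔ49 and 34.2 and 41.3 in WT. It fell by 4.02 and 3.97 on the log2 scale (adjusted p 0.000287 and 0.000301). The methyltransferase gene IGMT1 (AT1G21100), of the 4-methoxy modification, had 10.1, 6.26 and 16.5 in SPCHΔ49 basl-2, 7.48, 8.29 and 13.8 in SPCHΔ49 and 55.4 and 47.8 in WT (log2 fold changes -2.23 and -2.32, adjusted p 0.00489 and 0.00465), and without WT replicate 1 it passed in neither line (0.0557 and 0.0613). The transporter gene GTR3 (AT1G18880), known for keeping indole glucosinolates in roots, had 3.00, 2.04 and 5.17 in SPCHΔ49 basl-2, 1.93, 2.99 and 4.19 in SPCHΔ49 and 22.6 and 25.3 in WT, and fell in both (adjusted p 0.00162 and 0.00139). GGP3 (AT4G30550), a relative of GGP1 that can act at the same step, rose instead, with 76.6, 98.1 and 76.5 in SPCHΔ49 basl-2, 58.1, 58.8 and 50.3 in SPCHΔ49 and 31.4 and 37.3 in WT (log2 fold changes 1.26 and 0.68, adjusted p 0.000971 and 0.0138). In SPCHΔ49 the call of GGP3 was lost without SPCHΔ49 replicate 2 or either WT library (0.0513 to 0.132).

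Of 6 regulators outside the MYB family 2 fell in each line, a number too small to set against the 21.6% and 17.3% of all genes that were lower. MYC4 (AT4G17880), a jasmonate-responsive partner of the aliphatic and indole MYB factors, fell in both (log2 fold changes -0.64 and -0.56, adjusted p 0.0110 and 0.0212), but in SPCHΔ49 basl-2 not after quantile normalization (0.0501) or without WT replicate 1 (0.101), and in SPCHΔ49 not without either WT library (0.0528 to 0.172). OBP2 (AT1G07640), a DOF factor, fell in SPCHΔ49 (-0.55, adjusted p 0.0169), with the call lost without SPCHΔ49 replicate 2 or either WT library (0.0615 to 0.129). IQD1 (AT3G09710), a calmodulin-binding protein, fell in SPCHΔ49 basl-2 (-0.65, adjusted p 0.0336), a call that held under 7 of 17 alternatives.

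Breakdown genes changed in both directions. Of 17 genes 9 fell and 2 rose in SPCHΔ49 basl-2, where 34.3% of all genes were called, and 10 fell and 1 rose in SPCHΔ49, where 27.2% were. The falls in each line include TGG4, TGG5, BGLU21, BGLU22 and NSP3. These reached a signal of 1 only in WT and so had to differ. NSP4 also fell in both lines. Outside WT it reached 1 only in SPCHΔ49 basl-2 replicate 3 (1.29), so it too met the filter only through WT. TGG4 (AT1G47600) and TGG5 (AT1G51470), the myrosinases of roots, did not exceed 0.0433 in any overexpressor library. In WT the signal was 5.16 and 5.08 for TGG4 and 5.43 and 6.03 for TGG5. BGLU21 (AT1G66270), a root beta-glucosidase of the same enzyme family, had 0, 0.0399 and 0.0866 in SPCHΔ49 basl-2, 0.205, 0.108 and 0.157 in SPCHΔ49 and 38.0 and 47.2 in WT. TGG1 (AT5G26000), the myrosinase of guard cells and myrosin cells, had 1428, 1267 and 1616 in SPCHΔ49 basl-2, 1078, 993 and 1178 in SPCHΔ49 and 802 and 796 in WT. All 6 overexpressor libraries lay above WT. Of the 5 guard cell markers given above, 5 rose in SPCHΔ49 basl-2, where 12.6% of all genes were higher. In SPCHΔ49 4 rose, where 9.90% of all genes were higher, and the lowest log2 fold change among them all was -0.10. The part of guard cells in the TGG1 level was not tested. TGG1 rose in SPCHΔ49 basl-2 (0.84, limma adjusted p 0.00499). It did not pass in SPCHΔ49 (0.44, adjusted p 0.0621), where 4 of 18 alternatives passed. Its call in SPCHΔ49 basl-2 was lost without either WT library (0.0514 to 0.0520).

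Of the specifier protein genes, NSP5 differed between the overexpressors under all 18 alternatives run, while the calls of NSP1 (log2 fold change 1.04, adjusted p 0.0499) and ESP (2.25, adjusted p 0.0250) held under 5 and 10 of 18. NSP5 (AT5G48180), a nitrile specifier protein, had 236, 182 and 229 in SPCHΔ49 basl-2, 66.6, 79.5 and 97.2 in SPCHΔ49 and 100.3 and 94.8 in WT. NSP5 rose in SPCHΔ49 basl-2 against WT (log2 fold change 1.13, SE 0.18, adjusted p 0.00360) and against SPCHΔ49 (1.41, SE 0.16, adjusted p 0.00659), and its call against WT held under all 18 too. NSP1 (AT3G16400), the main nitrile specifier of seedlings, had 109, 80.6 and 144 in SPCHΔ49 basl-2, 42.7, 49.0 and 66.6 in SPCHΔ49 and 561 and 519 in WT, and fell against WT in both lines (-2.31 and -3.35, adjusted p 0.000882 and 0.000151). ESP (AT1G54040), the epithiospecifier protein, had 9.45, 3.40 and 12.0 in SPCHΔ49 basl-2, 0.536, 0.651 and 1.21 in SPCHΔ49 and 14.3 and 18.8 in WT, and fell in SPCHΔ49 (-3.29, adjusted p 0.00188), while in SPCHΔ49 basl-2 it did not pass (-1.04, adjusted p 0.106). ESM1 (AT3G14210), known for favouring isothiocyanates over nitriles, had 202, 54.9 and 357 in SPCHΔ49 basl-2, 241, 419 and 610.0 in SPCHΔ49 and 74.9 and 68.2 in WT. It rose in SPCHΔ49 (2.45, adjusted p 0.0460), but passed with no library left out other than SPCHΔ49 basl-2 replicate 2 or 3 (0.0560 to 0.201 without the others) and not with the filter of a mean of 5 (0.0503).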

How the data were processed

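RNA-seq libraries came from whole seedlings. Trimmomatic 0.38, kallisto 0.44.0 and sleuth are named in the submitters' processing notes. The deposited values are 1 signal per gene and sample, called TPM per the file headers; their totals differ between samples and some exceed the fixed sum of TPM, so the deposited signal is not plain TPM, and the step behind this is not stated. The genome build, the annotation, the summing of transcripts to genes and the choice of the 18855 listed genes are not stated in the sources, and no coordinates or sequences are printed. The test planned for TPM was kept for this signal.

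A linear model in limma 3.58.1 (R 4.3.3) was fitted to all 8 samples as log2(signal + 1), 1 coefficient per genotype, with a variance trend. Benjamini-Hochberg adjustment ran over all 18855 genes, and genes under 0.05 were called. Requiring 1 or more in 2 or more samples removed no gene. The fit was also run on simulated data, with noise drawn for each gene apart. The glucosinolate genes moved together by library, so that run does not bear on such shared shifts. With no counts, depth and counting error are unknown, and a value of 0 can be a failed estimate. Neighbouring genes come from RefSeq TAIR10.1, which matched all 42 identifiers. Close relatives (CYP79F1 and CYP79F2, GSTF9 and GSTF10, MAM1 and MAM3, TGG4 and TGG5, BGLU21 and BGLU22, IGMT1 and IGMT2) may share reads, so their separate values are uncertain, and strand use is not given in the sources.

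Values per library are given for the genes past the threshold, the regulators and the transporters, and for some genes of each step that did not pass, chosen after their values were seen; from the other lists up to 3 rising and 3 falling genes per comparison were named. The genes and lists were chosen with earlier results of these data known. Same-numbered replicates were not treated as pairs. Alternatives were other pseudocounts, filters, scalings, variance models, a replicate block and each library left out, and, added after the data were seen, both replicate 3 overexpressor libraries left out; with 1 WT library left, that library was assumed to vary like the other groups.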

Additional observations from a re-analysis of the deposited data

Results flagged for a closer look

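Genes of glucosinolate breakdown whose change against WT differed between the overexpressors, by the test of that difference, were ESP, NSP1 and NSP5. None of the 40 biosynthesis, regulator and transport genes did so. For NSP5 the log2 fold change in SPCHΔ49 basl-2 against SPCHΔ49 was 1.41 (limma adjusted p 0.00659), and it passed under all 18 alternatives. For ESP it was 2.25 (adjusted p 0.0250), and the call was lost under 8 of 18 alternatives, among them leaving out SPCHΔ49 basl-2 replicate 1, any SPCHΔ49 library or either WT library (0.0527 to 0.115). For NSP1 it was 1.04 (adjusted p 0.0499), at the edge of the threshold, and it passed under 5 of 18 alternatives; the adjusted p without any library but SPCHΔ49 basl-2 replicate 2 was 0.0569 to 0.179. What these differences rest on was not tested.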

How the results depend on the processing

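Filters, pseudocounts, scalings and the variance model left the direction of every call among the 40 genes in place, and no gene past the threshold reversed under any alternative. The glucosinolate genes past the threshold numbered 16 in SPCHΔ49 basl-2 against WT, 9 in SPCHΔ49 against WT and 0 between the overexpressors. Leaving out 1 library gave 4 to 29, 2 to 15 and 0 to 2, in that order. For aliphatic genes that were lower the ranges were 2 to 15, 0 to 9 and 0 to 1, and for indole genes 2 to 9, 2 to 6 and 0 to 0. For all genes they were 1624 to 7052 around 6458, 1121 to 5636 around 5120 and 151 to 1242 around 1020. The aliphatic genes that were lower in SPCHΔ49 were 2 with a pseudocount of 0.1. In a fit of only the compared groups they were 9 and all glucosinolate genes called 16, while those called in SPCHΔ49 basl-2 were 12, without GSTF11, GSTU20, SOT17 and CYP79B2 (adjusted p 0.0566, 0.0664, 0.0665 and 0.0896), and 485 genes were called between the overexpressors, against 671 with the filter of a mean of 5. Without the replicate 3 libraries of both overexpressors, added after the data were seen, 31 genes were called in SPCHΔ49 basl-2 against WT, 15 of them aliphatic and lower, and 1 between the overexpressors, CYP79B3, an indole gene (adjusted p 0.0498).

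The indole median between the overexpressors, -0.24, ranged from -0.61 to 0.25 with 1 library left out and was reversed without SPCHΔ49 basl-2 replicate 2 (0.25) and without SPCHΔ49 replicate 3 (0.06). With the replicate number as a block 30 genes were called in SPCHΔ49 basl-2 against WT, 14 of them aliphatic and lower, and 15 in SPCHΔ49 against WT, with 0 between the overexpressors. Same-numbered libraries of the overexpressors had correlations of their deviations of -0.169, -0.091 and 0.756, and SPCHΔ49 basl-2 replicates 1 and 2 correlated best with SPCHΔ49 replicates 2 and 1, so the numbers as labelled were not taken to pair the samples; whether numbers 1 and 2 are crossed between the lines could not be settled. The cause of these changes was not tested, and the unknown depth limits all genes with low signal.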

Other observations

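Genes that supply sulfur and tryptophan to the pathway were called no more often than the 34.3% and 27.2% of all genes called in SPCHΔ49 basl-2 and SPCHΔ49. Of 14 sulfur genes 3 fell and 1 rose in SPCHΔ49 basl-2, and 1 fell and 1 rose in SPCHΔ49. That was 28.6% and 14.3% called, with median log2 fold changes of -0.78 and -0.52. Every library of the line lay below both WT libraries for 64.3% of them in each line, against 35.5% and 32.7% of all genes. Every library lay above both WT libraries for 1 and 2 of them, against 26.5% and 28.2% of all genes. The shares with an unadjusted limma p under 0.05 were 64.3% and 21.4%, against 45.8% and 40.3% of all genes. SULTR1;2 (AT1G78000), the main root sulfate uptake transporter, had 1.78, 2.21 and 4.05 in SPCHΔ49 basl-2, 2.14, 2.34 and 3.90 in SPCHΔ49 and 16.0 and 22.5 in WT, and fell in both (limma adjusted p 0.00135 and 0.00154). LSU1 (AT3G49580), a gene induced by sulfur deficiency, had 0.528, 1.08 and 4.89 in SPCHΔ49 basl-2, 7.85, 4.29 and 5.69 in SPCHΔ49 and 15.3 and 27.8 in WT, and fell in SPCHΔ49 basl-2 (adjusted p 0.00698, and 0.0711 without WT replicate 2). In SPCHΔ49 LSU1 had an adjusted p of 0.0658 and passed under 6 of 18 alternatives. Of 8 tryptophan synthesis genes 1 fell in SPCHΔ49 basl-2 and none in SPCHΔ49, where 1 had an unadjusted p under 0.05. The camalexin genes PAD3 (AT3G26830) and CYP71A12 (AT2G30750), which draw on the same tryptophan-derived oxime, passed in neither line. Their log2 fold changes were 0.55 and 1.545 in SPCHΔ49 basl-2 and 0.52 and 1.59 in SPCHΔ49. The SE was 1.06 for PAD3 and 0.93 for CYP71A12 in either line.

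MYC2 (AT1G32640), a jasmonate regulator that acts with the MYB factors, was picked out after its values were seen. It was listed at 0 in SPCHΔ49 basl-2 replicates 1 and 2 and in SPCHΔ49 replicates 1 and 2, and had 25.6 and 22.4 in the replicate 3 libraries of these lines and 8.07 and 7.57 in WT. The replicate 3 libraries are also those in which most glucosinolate genes were highest within their line. Whether MYC2 has a part in that pattern was not tested. A listed 0 can be a failed estimate.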
